A study of Homo sapiens with 9 samples.

Results

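The comparison described here set 2 libraries of HEK293T cells with an FHY1-M3 construct and an ACTB guide RNA (sgRNA) against 2 libraries with the same construct and a con sgRNA, across all genes of the count table. These 4 libraries, out of 9 in the series, were chosen by their labels and not by their values. HEK293T is a human embryonic kidney cell line. In both groups the RNA was freed of ribosomal RNA and the cells carried FHY1-M3, so neither group shows cells without the construct. The study was set up to edit N6-methyladenosine (m6A) on RNA under control of red and far-red light. The labels do not give the light each culture received, what M3 stands for, the sequence of either guide, or if the RNA was total or immunoprecipitated. The con libraries are titled con_sgRNA but carry the name con_ACTB_sgRNA in the count table, so it cannot be told if they carried that guide too. Separate cultures for the replicates are not mentioned anywhere, and p-values then measure only the spread between these libraries. The 2 non-target sgRNA libraries of the series entered the fit to estimate that spread and are compared with nothing here.

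m6A is a methyl mark that a methyltransferase complex around METTL3 and METTL14 places on many messenger RNAs, that FTO and ALKBH5 can remove, and that YTH-domain and other reader proteins bind. A guide RNA can bring an effector protein to 1 chosen transcript, and a control guide shows what the effector does when it is not directed there. ACTB encodes beta-actin, which polymerises with gamma-actin into the filaments of the cytoskeleton. The pool of unpolymerised actin also holds back the coactivators of the transcription factor SRF, whose targets include actin genes themselves. A measurement of all genes can therefore be read for ACTB itself, for its family and the SRF targets, for the m6A machinery and for everything else.

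The 4 libraries held 3424940 to 3802681 counts. Of 19969 gene symbols, 12808 were kept for testing. All 5 markers listed for HEK293T were detected in each library, the neurofilament genes the highest, with NEFL between 108 and 139 CPM (counts per 1000000 of the library) and NEFM between 173 and 229 CPM. The others were low, with INA between 12.3 and 37.9, PAX2 between 5.61 and 14.7 and LHX1 between 3.19 and 10.1 CPM. Summed levels of 10 fibroblast markers were 33.1 and 28.6 CPM with the ACTB sgRNA and 45.2 and 34.9 CPM with the con sgRNA, with COL1A2 and DCN at 0 in all 4 libraries. The 9 epithelial markers summed to 1.7 and 3.5 CPM against 13.7 and 7.2 CPM, with KRT5, KRT6A, KRT14 and KRT17 at 0 in all 4. The 11 blood markers summed to 17.4 and 13.4 against 26.3 and 12.5 CPM, and 6 of them, PTPRC, the pan-leukocyte marker, included, were at 0 in all 4. The neuron markers summed to 45.4 and 40.9 against 50.5 and 62.9 CPM, the muscle markers to 62 and 39.1 against 50 and 59.7 CPM, and the liver markers to 7.9 and 0.3 against 2.6 and 3.7 CPM, with 1 of 8, 4 of 10 and 3 of 8 at 0 in all 4 libraries. The fibroblast, epithelial and neuron sums were lower in both ACTB libraries than in both con libraries, as were 17% of all genes tested. Among fibroblast and epithelial markers too low to test, PDGFRA held 0 and 0 against 30 and 2 counts and TP63 0 and 0 against 22 and 6. KRT15, SFN, THY1, POSTN and PDGFRB, also too low to test, had their highest count in an ACTB library. The part of these markers in the results was not tested.

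The 2 ACTB sgRNA libraries were no closer to each other than to the con sgRNA libraries. Over 8716 genes with a mean of at least 20 CPM, the log2 difference between the 2 ACTB sgRNA libraries had an SD of 0.46, computed on log2(CPM + 1). Between the 2 con sgRNA libraries the SD was 0.37. The 4 pairs made of 1 ACTB and 1 con library lay between 0.38 and 0.45. The share of genes that differed by more than 2-fold was 4.06% between the ACTB libraries and 1.78% between the con libraries, and ran from 1.86% to 3.95% across guides. The widest pair was therefore the ACTB replicates and the narrowest the con replicates, with all cross-guide pairs in between, and both ends lay close to the nearest of those.

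**Figure D1:**
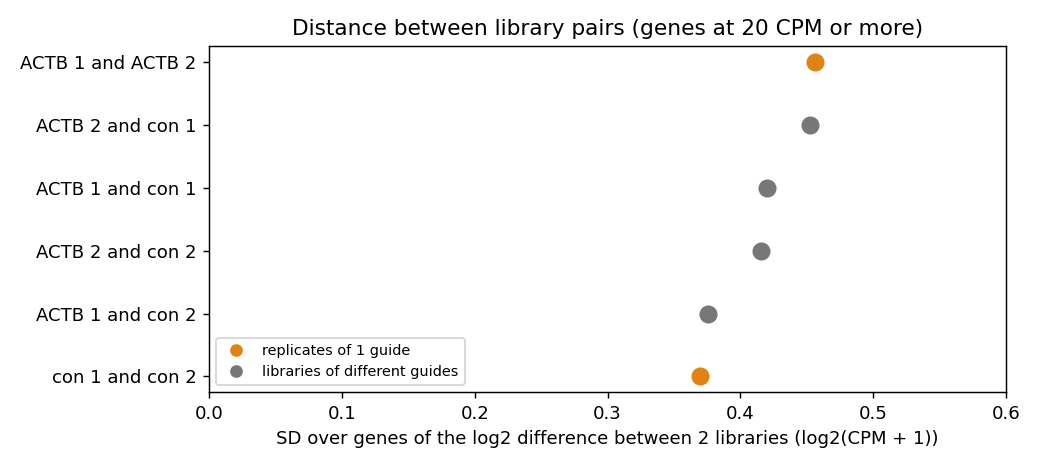
Each point is 1 pair of the 4 libraries, named by guide and replicate, and the x axis is the SD over 8716 genes of the log2 difference between them, on log2(CPM + 1). The ACTB replicates are farthest apart at 0.46 and the con replicates closest at 0.37, with the 4 cross-guide pairs between them.

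ACTB was the gene to examine first, since the guide is named for it. It lies on chromosome 7 at 5527148 to 5530601 (GRCh38.p14). Its level was 1405 and 1327 CPM in the ACTB sgRNA libraries (replicates 1 and 2) and 1391 and 1388 CPM in the con sgRNA libraries. The ACTB sgRNA libraries lie on either side of the con libraries, so the groups overlap. The fold of ACTB over con sgRNA was 0.983, and its 95% interval ran from 0.906 to 1.07. In edgeR's quasi-likelihood test the adjusted p (Benjamini-Hochberg) was 1. The 27 other genes of the table within 1 Mb of ACTB were also examined, with 22 tested, 0 past the threshold of an adjusted p under 0.05, 0 at an unadjusted p under 0.05 and a median log2 difference of 0.01.

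Gamma-actin, encoded by ACTG1, is nearly identical to beta-actin in protein sequence and shares its functions in most cells. ACTG1 stood at 2224 and 2297 CPM with the ACTB sgRNA and 2278 and 2129 CPM with con sgRNA (log2 fold change 0.04, SE 0.05). These values overlap too. Of the 23 actin isoforms and actin-related genes listed, 16 were tested, 0 passed, and their median log2 difference was 0.04, against 0.00 (0.00276) over all genes tested. At an unadjusted p under 0.05, 0 were higher and 1 lower (6.25% of the list, against 1.73% of all genes tested). The lower member was ACTR5, which encodes an actin-related subunit of the INO80 chromatin remodeller. ACTR5 was at 8.42 and 13.5 against 26.8 and 19.7 CPM (log2 -1.08, SE 0.50, adjusted p = 1). The muscle and smooth muscle actins were close to the limit of detection, with ACTA1 between 1.76 and 8.42 CPM and ACTA2 between 2.25 and 12.1 CPM, and their 95% intervals reached from 0.166 to 5.61-fold for ACTA1 and from 0.0982 to 1.63-fold for ACTA2. For the cytoplasmic actins the data bound any difference closely, whereas for the tissue-restricted actins they do not.

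Across all genes, 4 passed the adjusted threshold of 0.05, which is 0.0312% of those tested, 2 lower (0.0156%), JPH3 among them, and 2 higher (0.0156%), MT-CO1 and HOXC12, with the ACTB sgRNA. An unadjusted p under 0.05 was found for 494 genes (3.86%), 273 of them higher (2.13%) and 221 lower (1.73%). In 4398 genes (34.3%) the 2 ACTB libraries did not overlap the 2 con libraries, 2224 higher (17.4%) and 2174 lower (17%). DESeq2 called 5 genes, 3 of them among the 4.

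**Figure D2:**
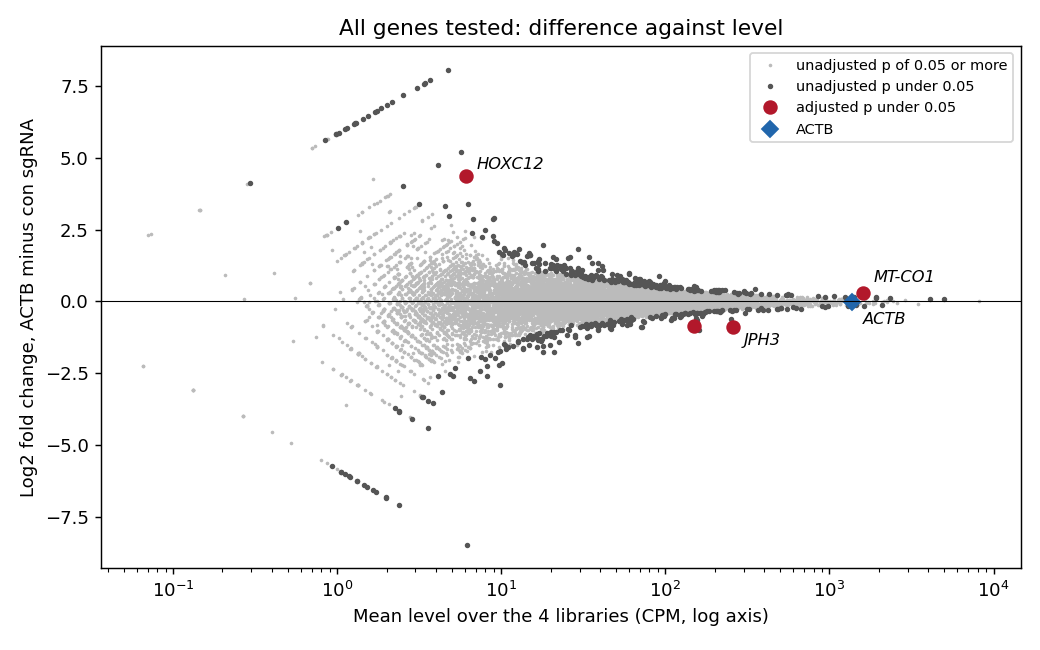
Each point is 1 of 12808 genes, with its mean CPM over the 4 libraries on a log x axis and the log2 fold change of ACTB over con sgRNA on the y axis. The 4 genes past the adjusted threshold are in red, 3 of them named, and ACTB (blue diamond) lies at -0.02. The cloud narrows as the level rises, and the slanted lines at the left are genes with few or no counts in 1 group.

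JPH3 encodes junctophilin-3, a neuronal protein that tethers the endoplasmic reticulum to the plasma membrane so that calcium channels of both membranes lie close together. The gene is on chromosome 16 at 87601835 to 87698156 (GRCh38.p14). Its level was 171 and 188 CPM with the ACTB sgRNA and 274 and 395 CPM with the con sgRNA. The con libraries were both above the ACTB libraries, but they differed from each other more than the ACTB libraries did, with con replicate 2 the highest of the 4. JPH3 was 1.87-fold lower with the ACTB sgRNA (log2 -0.90, SE 0.14, 95% interval -1.19 to -0.61, adjusted p = 0.00144). Of 1614 genes within 2-fold of its level, few had a replicate difference as large, on log2(CPM + 1). There was 1 between the ACTB libraries, 1 between the con libraries and 3 between the non-target libraries. JPH3 was picked for its difference between groups, so these counts do not test it. Here and below, group differences are between means of 2 libraries and replicate differences between single libraries. JPH3 no longer passed when ACTB sgRNA replicate 1 (adjusted p = 0.271) or 2 (0.0698) was left out. JPH3 also missed the threshold without con replicate 2, with a log2 of -0.62. Without con replicate 1 the log2 was -1.14.

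Related genes were read beside it, in lists that were chosen with the JPH3 result known. JPH1, the other junctophilin gene with enough counts to test, was at 38.4 and 51.3 CPM against 65.8 and 49.4 CPM, and its groups overlap (log2 -0.36, SE 0.33). JPH2 and JPH4 held at most 4 counts in any of the 4 libraries. Of 30 genes of calcium release, calcium uptake and membrane contacts, 26 were tested and 0 passed. Their median log2 difference was 0.14, or 0.08 without ACTB sgRNA replicate 2. At an unadjusted p under 0.05, 1 was higher (3.85%, against 2.13% of all genes tested) and 0 lower. The higher member was the potassium channel gene KCNN2, at 32 and 16 against 0 and 0 counts. The calcium pump gene ATP2A2 was at 317 and 356 against 309 and 337 CPM (log2 0.06, SE 0.12). The calcium sensor gene STIM1 was at 60.1 and 62.7 against 54.2 and 45.7 CPM (0.30, SE 0.29). KLHDC4, which overlaps JPH3 in the reference table, was at 78.0 and 75.3 against 64.7 and 61.1 CPM (log2 0.29, SE 0.28, adjusted p = 1), which is the opposite direction to JPH3.

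MT-CO1, encoded by the mitochondrial genome, is the catalytic subunit of cytochrome c oxidase (complex IV), the last enzyme of the respiratory chain. Its level was 1821 and 1723 CPM with the ACTB sgRNA and 1421 and 1459 CPM with the con sgRNA. Both groups were tight, with replicates closer to each other than to any library of the other guide. MT-CO1 was 1.23-fold higher with the ACTB sgRNA (log2 0.30, SE 0.06, 95% interval 0.19 to 0.41, adjusted p = 0.0132). None of 99 genes within 2-fold of its level had so large a replicate difference in any of the 3 guides, though MT-CO1 was picked for its difference between groups. The adjusted p was above the threshold when ACTB sgRNA replicate 1 (0.612) or 2 (0.102), or con replicate 1 (0.182) or 2 (0.159), was left out, while the log2 difference stayed between 0.26 and 0.34.

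The other 12 mitochondrial mRNAs did not pass. All 13 come from long precursor transcripts of both mitochondrial strands that are cut into single mRNAs. The other mitochondrial complex IV subunits were at 1311 and 1114 against 1196 and 1127 CPM for MT-CO2 (log2 0.06, SE 0.07) and at 656 and 554 against 515 and 545 CPM for MT-CO3 (0.19, SE 0.10). MT-CO2 overlaps between the guides, and MT-CO3 does not, with a narrow gap. Of the complex I subunits, MT-ND4 was at 532 and 513 against 500 and 477 CPM (log2 0.10, SE 0.10), MT-ND5 at 822 and 807 against 929 and 839 CPM (-0.12, SE 0.08) and MT-ND2 at 96.0 and 99.6 against 129 and 125 CPM (-0.38, SE 0.21). The largest estimate of the list was that of MT-ATP8, a small subunit gene of ATP synthase, at 18.2 and 24.3 against 15.8 and 14.6 CPM (log2 0.48, SE 0.53, adjusted p = 1), at far lower counts than MT-CO1. MT-ND4L, a complex I subunit gene, was at 49.4 and 41.3 against 25.8 and 45.7 CPM (0.34, SE 0.36), and its groups overlap. The list had 8 members above 0 and 5 below, with a median of 0.01 that lay between -0.06 and 0.12 over the 4 left-out libraries. Mitochondrial mRNAs together took 0.639% and 0.584% of the counts with the ACTB sgRNA and 0.577% and 0.581% with the con sgRNA.

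Nuclear genes of the same enzyme and of mitochondrial RNA were also listed with the MT-CO1 result known. Among 29 tested nuclear genes for complex IV subunits and assembly factors, 0 passed, 20 lay above 0 and 9 below, and the median was 0.10, or 0.19 without con replicate 2. Over all genes tested, 6440 lay above 0 and 6348 below. COX8A, a small structural subunit, was at 35.9 and 37.8 against 24.7 and 14.3 CPM (log2 0.91, SE 0.45, adjusted p = 1). COX4I1, a core regulatory subunit, was at 238 and 256 against 201 and 249 CPM (0.13, SE 0.15), and its groups overlap. Of 26 tested genes that transcribe, process or stabilise mitochondrial RNA, 0 passed and the median was -0.11, or -0.01 without con replicate 1 and -0.04 without ACTB sgRNA replicate 1. LRPPRC, which stabilises mitochondrial mRNAs, was at 393 and 352 against 325 and 369 CPM (0.10, SE 0.13).

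**Figure D3:**
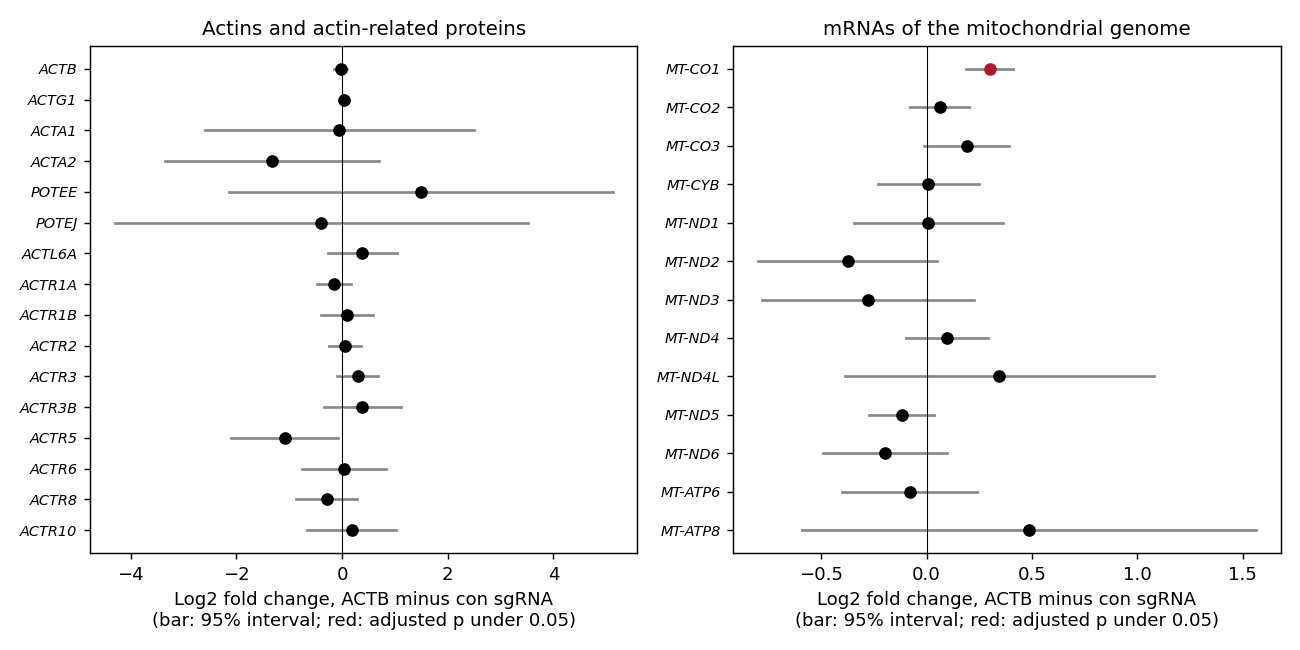
Points are log2 fold changes of ACTB over con sgRNA from the edgeR fit and bars are 95% intervals, for the tested actins and actin-related genes (left) and the 13 mitochondrial mRNAs (right), on x axes of different range. ACTB and ACTG1 have narrow intervals around 0, the low-count actins have wide ones, and MT-CO1 (red) is the member past the adjusted threshold.

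HOXC12 is a homeobox transcription factor gene of the HOXC cluster, expressed in posterior parts of the embryo. It is on chromosome 12 at 53954903 to 53958956 (GRCh38.p14). It held 8 and 72 counts with the ACTB sgRNA and 0 and 4 counts with the con sgRNA, or 2.25 and 21.1 against 0 and 1.06 CPM. Most of its counts came from ACTB sgRNA replicate 2, and the other 3 libraries were close to 0. The fitted log2 difference was 4.37 (SE 0.81, 95% interval 2.73 to 6.005, adjusted p = 0.0132). Among 2133 genes within 2-fold of its mean level, 91 differed as much between the ACTB replicates as HOXC12 did between the groups, 27 between the con replicates and 105 between the non-target replicates, on log2(CPM + 1). Leaving out ACTB sgRNA replicate 2 gave a log2 of 2.01 and an adjusted p of 1. HOXC12 also missed the threshold without con replicate 1 (adjusted p = 0.182) or non-target replicate 1 (0.141) or 2 (0.0810), and in DESeq2 (0.65). Without con replicate 2, which leaves the con group at 0 counts, it kept the call (adjusted p = 0.0047).

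**Figure D4:**
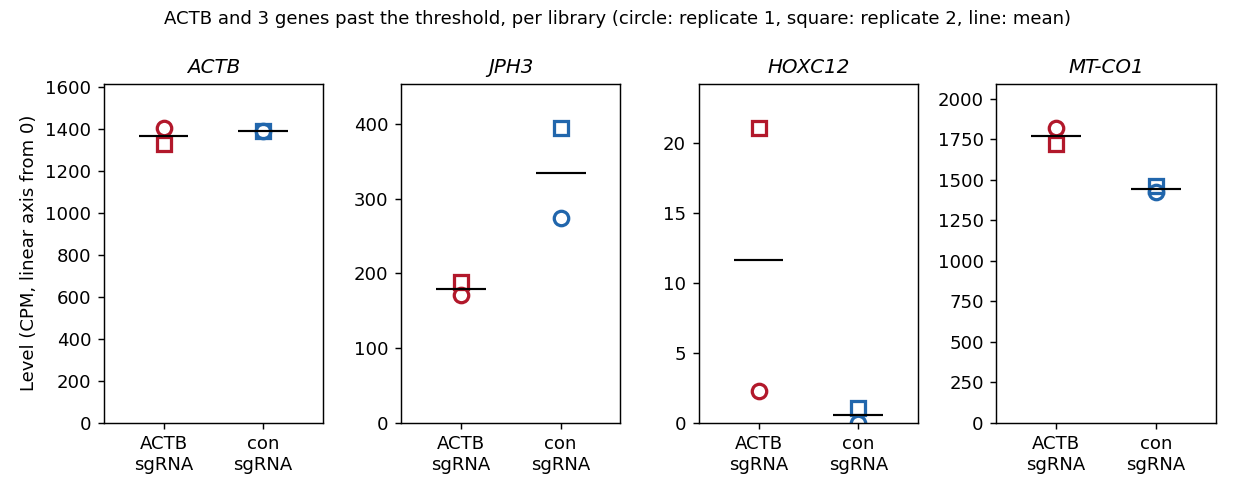
Levels in CPM on linear axes from 0 for ACTB, JPH3, MT-CO1 and HOXC12, with 1 point per library (circle for replicate 1, square for replicate 2) and a line at each mean of 2. ACTB overlaps between guides, MT-CO1 separates with tight replicates, JPH3 is higher in con replicate 2 than in con replicate 1, and HOXC12 rests on ACTB replicate 2.

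The neighbours of HOXC12 on the cluster did not pass. HOXC11 was at 25.3 and 33.98 against 30.5 and 15.9 CPM (log2 0.35, SE 0.47) and HOXC13 at 11.8 and 19.3 against 29.98 and 15.4 CPM (-0.54, SE 0.53), and both overlap between guides. HOXC5 was at 2.81 and 9.96 against 0.526 and 1.06 CPM (2.95, SE 1.69, adjusted p = 1), again with its highest value in ACTB sgRNA replicate 2. Of 9 tested HOXC genes 1 passed, and of 10 HOXA, 10 HOXB and 8 HOXD genes 0 passed, with medians of 0.14 for HOXC, -0.24 for HOXA, -0.01 for HOXB and 0.35 for HOXD. All 8 HOXD estimates were above 0, from 0.03 (HOXD10) to 1.004 (HOXD12), and 7 of the 8 overlapped between guides, with HOXD8 the exception, where 34.3% of all genes tested did not overlap. The HOX medians moved with single libraries. The HOXD median was 0.05 without ACTB sgRNA replicate 2 and 0.08 without con replicate 1, and the HOXA median was -0.58 without ACTB sgRNA replicate 1, -0.15 without con replicate 1 and -0.09 without con replicate 2. The HOXC median ranged from 0.01 to 0.33 and the HOXB median from -0.14 to 0.16 over the 4 left-out libraries. The highest HOXD genes were nearly level between guides, with HOXD13 at 95.4 and 136 against 103 and 121 CPM and HOXD10 at 99.9 and 78.5 against 86.5 and 88.7 CPM. HOXB13, which marks the posterior end of its cluster, was at 51.1 and 26.95 against 10.5 and 16.5 CPM (log2 1.53, SE 0.47, adjusted p = 1).

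No tested gene of the m6A machinery passed the threshold. METTL3 stood at 51.6 and 46.6 against 48.9 and 60.5 CPM (log2 -0.16, SE 0.32). METTL14, its partner, stood at 69.6 and 97.3 against 83.6 and 73.3 CPM (0.09, SE 0.25), and WTAP, which anchors the complex, at 147 and 140 against 157 and 126 CPM (0.02, SE 0.18). The demethylase genes FTO, at 63.4 and 56.8 against 61.5 and 56.8 CPM, and ALKBH5, at 141 and 221 against 250 and 184 CPM, overlap as well. Of 16 tested writer and eraser genes 0 passed and 0 had an unadjusted p under 0.05, with a median of -0.03 and 14 intervals inside 2-fold.

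Readers of m6A gave narrow bounds. All 17 tested readers had 95% intervals inside 2-fold, 0 passed, and the median was -0.02. YTHDF2, which brings m6A-marked RNA to decay, was at 310 and 351 against 320 and 333 CPM (log2 0.02, SE 0.12), and YTHDC1, the nuclear reader, at 249 and 237 against 226 and 239 CPM (0.06, SE 0.14). At an unadjusted p under 0.05, 0 readers were higher and 1 lower (5.88%, against 1.73% of all genes tested). The lower member was HNRNPA2B1, a nuclear RNA-binding protein, at 1217 and 1223 against 1337 and 1404 CPM (-0.17, SE 0.06, adjusted p = 1). Of 28 transcripts often described as carrying m6A, 0 passed and the median was -0.05. At an unadjusted p under 0.05, 1 was higher (3.57%, against 2.13% of all genes tested) and 2 lower (7.14%, against 1.73%). The higher gene was ID2, an inhibitor of helix-loop-helix transcription factors, at 95.4 and 78.2 against 46.3 and 55.2 CPM (0.77, SE 0.27). Among the lower genes was the cyclin gene CCNA2 at 102 and 124 against 142 and 157 CPM (-0.40, SE 0.18).

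Genes tied to the state of actin were examined next. Among 40 tested regulators of actin assembly, 0 passed, and the median was -0.01. At an unadjusted p under 0.05, 0 were higher and 3 lower, or 7.5% of the list lower, against 1.73% of all genes tested. Those 3 were MYH10, a non-muscle myosin heavy chain, at 416 and 463 against 510 and 544 CPM (log2 -0.26, SE 0.10), ARPC4, a subunit of the Arp2/3 nucleator, at 11.5 and 16.4 against 32.1 and 26.6 CPM (-1.07, SE 0.47), and TPM2, a tropomyosin, at 8.98 and 7.62 against 27.4 and 13.8 CPM (-1.31, SE 0.58). Of 21 tested targets of SRF, 0 passed, 0 had an unadjusted p under 0.05, and the median was -0.05.

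Stress and signalling lists showed small medians. Of 25 heat shock genes, 0 passed and 18 lay below 0, with a median of -0.07. Over all genes tested, 6348 of 12808 lay below 0. The guides did not overlap in 8 lower and 3 higher members, against 17% and 17.4% of all genes tested. At an unadjusted p under 0.05, 0 were higher and 3 lower, or 12% of the list lower, against 1.73% of all genes tested. Those 3 were DNAJA1, a cochaperone of HSP70, at 366 and 390 against 470 and 458 CPM (log2 -0.30, SE 0.10), STIP1, which links HSP70 and HSP90, at 605 and 554 against 654 and 704 CPM (-0.23, SE 0.09), and HSP90AB1 at 2015 and 2000 against 2147 and 2221 CPM (-0.12, SE 0.05), each with an adjusted p of 1. HSPA8 at 2221 and 2263 against 2328 and 2214 CPM and the inducible HSPA6 at 241 and 276 against 261 and 296 CPM overlap between guides. RNA sensing and interferon genes, which could respond to introduced RNA, had 17 of 29 members with enough counts, 0 past the threshold, 0 at an unadjusted p under 0.05 and a median of -0.08, and CXCL10 and MX1 were at 0 in all 4 libraries. The p53 list had 0 of 16 past the threshold (median -0.08) and the immediate early list 0 of 16 (-0.03). The ATF4 list had 0 of 18 (0.03) and the unfolded protein response list 0 of 16 (-0.01). At an unadjusted p under 0.05, the unfolded protein response list had 1 higher and 1 lower (6.25% each). The ATF4 list had 1 higher (5.56%) and the p53 list 1 lower (6.25%). Over all genes tested the shares were 2.13% higher and 1.73% lower.

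Lists of growth and RNA handling followed. DNA replication had 0 of 38 past the threshold with a median of -0.04, mitosis 0 of 27 (-0.03) and glycolysis 0 of 18 (0.07). Translation factors had 0 of 37 (0.02), hnRNP and SR splicing proteins 0 of 29 (-0.03) and RNA decay factors 0 of 37 (0.01). At an unadjusted p under 0.05, 3 translation factors were higher (8.11%) and 2 lower (5.41%). Of the splicing proteins 1 was higher (3.45%) and 2 lower (6.9%). Mitosis had 1 higher (3.7%) and glycolysis 1 higher (5.56%). In RNA decay, 2 were lower (XRN1 and EDC3) and 2 higher (CNOT1 and CNOT8) at an unadjusted p under 0.05. Each pair was 5.41% of the list, against 1.73% lower and 2.13% higher of all genes tested. The exonuclease gene XRN1 was at 86.4 and 82.0 against 122 and 143 CPM (log2 -0.65, SE 0.21). The decapping factor gene EDC3 was at 101 and 96.7 against 154 and 136 CPM (-0.56, SE 0.20). In the same list the deadenylase genes CNOT1, at 642 and 577 against 479 and 544 CPM (0.25, SE 0.10), and CNOT8, at 38.7 and 54.5 against 24.7 and 27.6 CPM (0.83, SE 0.38), lay the other way. Over all lists with each gene counted once, 560 were tested and the median was -0.01. At an unadjusted p under 0.05, 16 were higher (2.86%, against 2.13% of all genes tested) and 19 lower (3.39%, against 1.73%). The 3 list members past the threshold, MT-CO1, JPH3 and HOXC12, are in lists chosen with their results known.

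**Figure D5:**
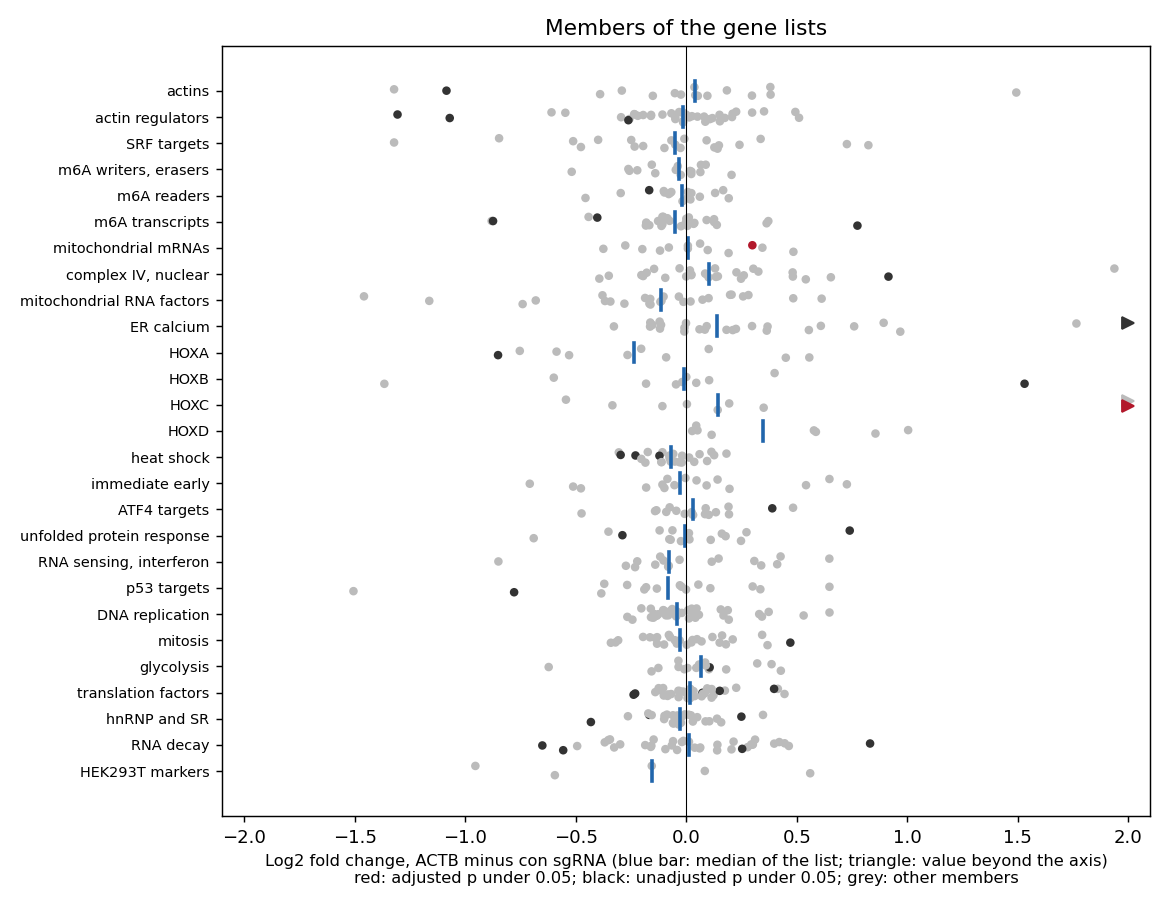
Each point is a tested member of 1 of 27 gene lists, with its log2 fold change of ACTB over con sgRNA on the x axis, limited to -2 and 2, and a blue bar at the median of the list. The medians lie between -0.24 (HOXA) and 0.35 (HOXD), MT-CO1 and HOXC12 are the red points, and 3 members beyond the axis are drawn as triangles.

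Some genes that missed the threshold, and whose libraries did not overlap between the guides, were read as examples. At an unadjusted p under 0.05 and at least 20 CPM there were 136 such lower genes and 192 higher. The 10 lower genes with the smallest p had adjusted p-values from 0.109 to 1, and all but SLC52A2 and COL5A1 were at 0.98 or more. SLC52A2, a riboflavin transporter gene, was at 112 and 104 CPM with the ACTB sgRNA and 128 and 299 CPM with the con sgRNA. Its log2 was -0.98 (SE 0.22, adjusted p = 0.109). DESeq2 gave SLC52A2 an SE of 0.50 and an adjusted p of 0.80. Con replicate 2 alone was far from the other 3, and without it the log2 difference was -0.26, while without con replicate 1 it was -1.47 (adjusted p = 2.81e-06). COL5A1, a fibrillar collagen chain gene, was at 191 and 209 against 268 and 337 CPM (-0.60, SE 0.14, adjusted p = 0.161), and DESeq2 called it (0.0352).

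CREG1, which encodes a lysosomal glycoprotein, was at 114 and 128 against 152 and 231 CPM, and ELK1, a partner of SRF, at 113 and 132 against 149 and 219 CPM. RPL26, a ribosomal protein gene whose processed copies may share its reads, was at 269 and 253 against 322 and 373 CPM. As in JPH3, SLC52A2 and COL5A1, con replicate 2 was the highest library in each of these 3 genes. The small GTPase gene RALB, at 20.8 and 11.1 against 51.6 and 34.5 CPM, the membrane-bending protein gene BIN1, at 40.4 and 60.9 against 90.7 and 96.7 CPM, the pannexin gene PANX2, at 8.70 and 10.5 against 37.3 and 27.6 CPM, and the Rab regulator gene TBC1D8, at 24.1 and 15.5 against 51.6 and 41.2 CPM, were also among the 10. Without con replicate 2, the library highest in most of these genes, 1 gene passed the threshold over all genes, HOXC12.

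The 10 higher genes chosen in the same way had adjusted p-values from 0.31 to 1. CTXN1, which encodes the neuronal membrane protein cortexin, was at 46.6 and 45.7 CPM with the ACTB sgRNA and 18.9 and 6.90 CPM with the con sgRNA, a log2 of 1.83 with an SE of 0.45. DHX34, a helicase gene of nonsense-mediated decay, was at 127 and 109 against 66.3 and 61.6 CPM (0.89, SE 0.24), and its replicates were close within each guide. UBE2S, a ubiquitin-conjugating enzyme gene of the anaphase-promoting complex, was at 377 and 430 against 309 and 294 CPM (0.42, SE 0.12). GGCX, the vitamin K-dependent carboxylase gene, was at 39.9 and 62.7 against 15.8 and 24.96 CPM (1.33, SE 0.38).

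Other genes of this group were SECISBP2L, a paralogue of a selenoprotein translation factor, at 77.5 and 82.6 against 34.7 and 47.0 CPM, PPP1R37, a regulator of protein phosphatase 1, at 76.9 and 82.6 against 34.7 and 46.2 CPM, and the small GTPase gene RAP1B at 126 and 122 against 80.5 and 71.2 CPM. AMMECR1 was at 49.96 and 66.2 against 23.7 and 25.5 CPM. The unmatched symbol AC005954.1 was at 24.1 and 77.0 against 18.9 and 15.9 CPM, so that its difference rests on ACTB sgRNA replicate 2. HOXB13, described above, was the other member.

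Some genes were at 0 counts with 1 guide and present with the other. At least 10 counts in both ACTB sgRNA libraries and 0 in both con libraries were found for 8 genes (0.0625% of those tested), and the reverse for 5 (0.039%). RET encodes the receptor tyrosine kinase of GDNF signalling. It held 66 and 28 counts with the con sgRNA and 0 with the ACTB sgRNA (adjusted p = 0.118). Against a floor of 3 counts over the ACTB group it was 28.9-fold lower, a value that leaves out the spread between replicates. DESeq2 called RET (0.011). XDH, which encodes xanthine dehydrogenase, held 22 and 14 counts, NPIPB12 14 and 16, the myogenic factor gene PAX7 14 and 12 and SGIP1 12 and 11, all with the con sgRNA.

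In the other direction, the mucin gene MUC17 held 38 and 28 counts with the ACTB sgRNA. Against a floor of 3 counts over the con group it was 23.9-fold higher, a value that leaves out the spread between replicates. The fitted interval of MUC17 began lower, at 10.5-fold. The intestinal guanylate cyclase gene GUCY2C held 42 and 10 counts and the calcium-activated potassium channel gene KCNN2 32 and 16. The epithelial transcription factor gene OVOL1 held 25 and 22, the anion transporter gene SLC26A7 33 and 10 and NPIPA5 12 and 16. Against the same floor the genes named after MUC17 were 10.1 to 18.8-fold higher. Their fitted intervals began lower, between 1.91-fold (NPIPA5) and 6.64-fold (GUCY2C). NPIPA5 and NPIPB12 belong to a family of near-identical copies, so their counts are uncertain. PEG10 (14 and 12 counts) and AMPD1 (10 and 10) complete the 8. All of these had an adjusted p of 1, and since most counts are even, 3 counts may stand for fewer fragments.

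A 0 beside at least 10 counts was also frequent between single replicates of 1 guide. The numbers that follow compare 1 library with 1 other, a looser rule than 2 libraries against 2. Between the ACTB sgRNA replicates, 80 genes were at 0 in replicate 1 with at least 10 counts in replicate 2, and 95 the other way. Between the con replicates the numbers were 56 and 27, and between the non-target replicates 109 and 99. For pairs of 1 ACTB and 1 con library, 39 to 77 genes were at 0 in the con library and 69 to 101 in the ACTB library. EEF1G, a translation elongation factor gene active in all cells, was listed at 0 in all 4 libraries, so a 0 in this table is not by itself a measure of absent RNA.

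The level of a gene set how small a difference could be seen. Above 100 CPM the median 95% interval reached 1.28-fold on either side, and for 99.7% of 2569 such genes it lay inside 2-fold. Between 20 and 100 CPM the median reach was 1.61-fold, and 61.8% of 6139 genes had intervals inside 2-fold. Between 5 and 20 CPM the median reach was 2.6-fold, and 4 of 2744 genes had such an interval. Over all levels, 6362 of 12776 genes with an interval (49.8%) had one inside 2-fold, and 2381 had one inside 1.5-fold. For the remaining genes a 2-fold difference between the guides is not excluded by these 4 libraries.

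RNA types and chromosomes were compared as well. Protein-coding genes made up 12646 of the tested genes, with 269 higher and 219 lower at an unadjusted p under 0.05 and a median of 0.00249. Of 16 tested long noncoding RNA genes and 18 transcribed pseudogenes, 0 passed and 0 had an unadjusted p under 0.05. Medians of chromosomes 1 to 22 and X lay between -0.03 (chromosome 8, 439 genes) and 0.04 (chromosome 21, 114 genes), and chromosome 7, which carries ACTB, had a median of 0.03 over 595 genes.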

How the data were processed

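The authors deposited raw read counts per gene symbol, as whole numbers with no sign of normalization. Tools in the submitters' processing notes are STAR 2.7.10b, cutadapt 4.3 and deepTools, with hg38 as build. How reads were counted, strand included, and by which annotation is not given in the sources, so reads of overlapping or antisense genes cannot be told apart. Between 92.8% and 95.7% of counts from 1 to 20 were even in each library, as when each fragment adds 2 counts, and floors cover counting error only. Symbols were matched to a RefSeq table (GRCh38.p14) for 19283 of 19969, and coordinates are 1-based.

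The 6 sgRNA libraries were fitted together with edgeR 4.0.16 (R 4.3.3) by the quasi-likelihood F test, two-sided, after filterByExpr and with TMM scaling. Every adjusted p is a Benjamini-Hochberg value over 12808 genes with a threshold of 0.05, from this test unless DESeq2 (1.42.0) is named. Standard errors (SE) are the log2 fold change over the square root of F. The test shares the spread across genes, with 43.9 to 45.9 total degrees of freedom. The p-value and SE of a gene therefore rest mostly on the spread of all genes, not on its own replicates. CPM are counts scaled within this fit, and list sums use library totals. Single libraries are given as replicate 1 then 2, ACTB sgRNA first.

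Genes were named by rule: ACTB, genes past the threshold, up to 10 per direction with the smallest unadjusted p, at least 20 CPM and no overlap, list members first in order or at an unadjusted p under 0.05, and genes at 0 in 1 guide with at least 10 counts in both libraries of the other. PEG10 and AMPD1, and HOXC5, HOXC11, HOXC13, COX4I1, LRPPRC, KLHDC4 and some further list members, were named after their values were seen. The comparison, lists and rules were chosen with earlier results of these data known, and lists are described without a test. Genes that meet these rules but are not named are not reported here. The scripts were tested on simulated data. Alternatives covered scaling, filters, DESeq2, which libraries were fitted, blocking on replicate number, halved counts and leaving out each library.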

Additional observations from a re-analysis of the deposited data

How the results depend on the processing

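The count of 4 genes past the threshold stayed at 4 with median-ratio factors and with library totals alone, and was 5 with a minimum of 10 CPM, with counts halved to read pairs and in DESeq2. It was 7 with no low-count filter and 2 with the 4 compared libraries alone, where HOXC12 was not tested. Leaving out each library in turn gave counts from 0 (without ACTB sgRNA replicate 2) to 3 (without con replicate 1), with 1 without ACTB sgRNA replicate 1 or con replicate 2 and 2 without either non-target replicate. Over those fits the number of list members past the threshold ranged from 0 to 1 for the ACTB and con libraries, against 3 with all. JPH3 was called under 11 of 14 alternatives, MT-CO1 under 10, HOXC12 under 8, SLC52A2 under 4, and COL5A1 and RET under 2. The direction of the differences in JPH3, MT-CO1 and HOXC12 did not change under the alternatives in which they were tested. Of 252 alternative values of list medians, 22 moved by more than the replicate spread, the largest shift being 0.35 for HOXA without ACTB sgRNA replicate 1. With an ACTB or con library left out, the medians of the lists tested for this, other than HOX genes and HEK293T markers, lay between -0.17 (p53, without con replicate 1) and 0.19 (nuclear complex IV, without con replicate 2), and some changed sign, such as the m6A transcripts (0.05 without con replicate 1). The ACTB difference ranged from -0.065 (without ACTB sgRNA replicate 1) to 0.0139 over the left-out libraries and changed sign, to 0.0139, without ACTB sgRNA replicate 2. The replicate numbers share no batch in the labels, and the deviations of same-numbered ACTB and con libraries correlated at -0.00949 over 8716 genes, so the numbers were not taken as pairs. With a replicate block 4 genes passed, the same 4, and ACTB was at -0.02. A library left alone in its group was assumed to vary like the others. With 2 libraries a group, low-count genes are limited by depth and by the spread between replicates.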
